A study of Homo sapiens with 4 samples.

Results

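Bone morphogenetic proteins (BMPs) are secreted ligands of the TGF-β superfamily, and the 8 genes described here, BMP2, BMP4, BMP5, BMP6, BMP7, BMP8A, GDF6 and GDF7, encode such ligands. They were taken by gene symbol, 1 row each, from a table of 56595 symbols measured by RNA-seq in H1 cells, an established human embryonic stem cell line, on day 2 of hematopoietic differentiation. All 4 libraries came from cells given activin A at 40 ng/ml and BMP4 at 50 ng/ml according to the sample labels (the study's methods state these doses the other way round). The 2 control libraries received the solvent DMSO alone, and the 2 treated libraries received IWP2, an inhibitor of the acyltransferase Porcupine, which Wnt ligands need for secretion. The dose of IWP2 was not given in the sources used here. The comparison asked how blocking Wnt secretion during mesoderm induction changed the transcripts of the cells' own BMP ligands. The added BMP4 was supplied as protein and carries no RNA, so the values below are those of endogenous transcripts.

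BMP ligands are made as precursors, cut by furin-like proteases and secreted as dimers. They bind paired type I and type II receptors on the cell surface, which phosphorylate SMAD1, SMAD5 and SMAD9. These enter the nucleus with SMAD4 and switch on targets such as the ID genes. BMP2 and BMP4 are close relatives, BMP5, BMP6, BMP7 and BMP8A form a further subgroup, and GDF6 and GDF7 belong to the GDF5 subgroup known from joints and the dorsal neural tube. In the early embryo BMP4 is a classical inducer of posterior and ventral mesoderm, from which blood arises.

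Levels are given in FPKM, sequenced fragments scaled by transcript length and by the library's total, so that levels of different genes may be compared. Tests were made with limma on log2(FPKM + 1) over the 15957 genes with a mean of at least 0.5 FPKM over all 4 libraries, and a gene was called when its adjusted p (Benjamini-Hochberg over all of them) was under 0.05. Fold changes on that scale understate changes of low genes. Summed FPKM ran from 616400 to 653800 per library, each library had 13819 to 13912 genes above 1 FPKM, and the 2 libraries of a group correlated across tested genes with r of 0.975 (DMSO) and 0.981 (IWP2). The labels do not say whether replicates were separate cultures, so p-values rest on the spread between these libraries. For each gene limma takes part of that spread from other genes of like level. The number of reads per library is unknown from the file. Over all tested genes 1180 were called lower in IWP2 (7.39%) and 935 higher (5.86%), together 13.3%.

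Of the 8 ligand genes, 4 passed the filter on low values and 3 of these were called. BMP2 and BMP4 fell under IWP2, against a background of 7.39% of tested genes called lower. BMP7 rose, against 5.86% called higher. BMP6 passed the filter and was not called, and BMP5, BMP8A, GDF6 and GDF7 stayed under the filter, so no test was made for them. The 2 libraries of each group lay apart from those of the other group in 8 of 8 genes, 6 lower and 2 higher in IWP2, while 45.9% of all 28846 genes with a mean above 0 did so. In bulk samples such as these, fewer cells of a type and less RNA per cell cannot be told apart. With 2 libraries against 2, an exact two-sided permutation test of a single gene cannot give a p below 0.333.

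**Figure D1:**
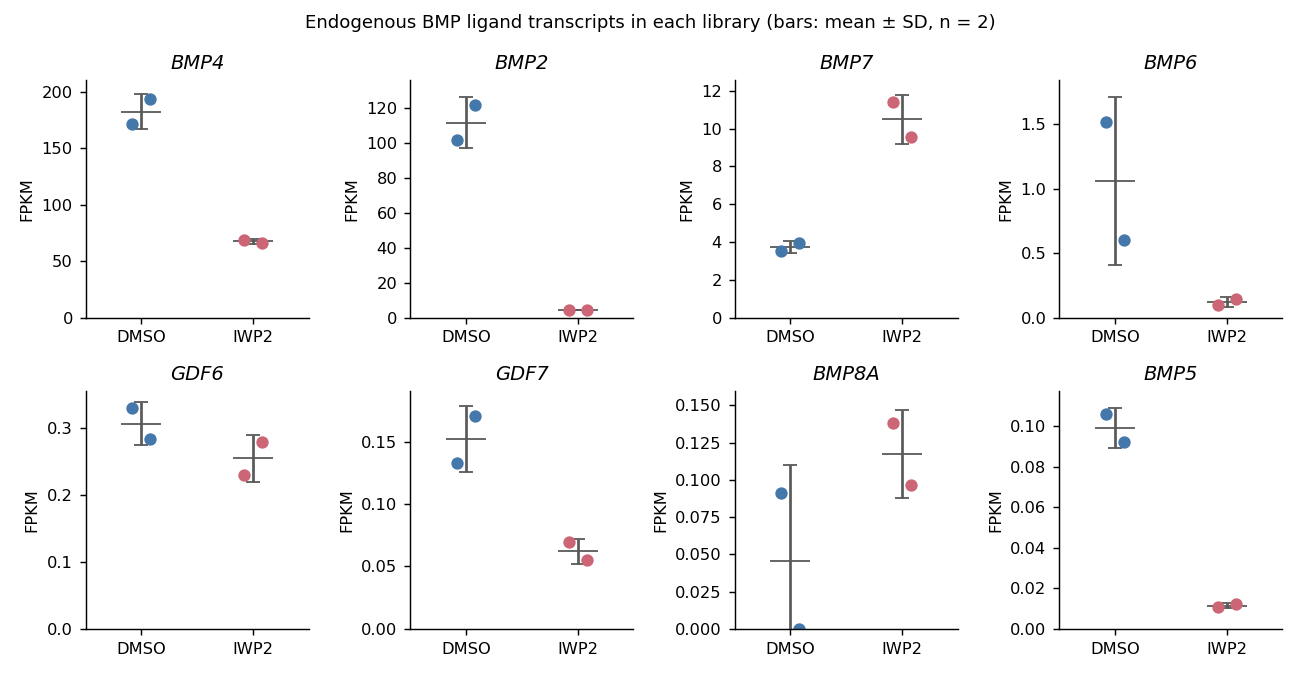
FPKM of the 8 endogenous BMP ligand genes in each library, 1 panel per gene ordered by mean level, each with its own linear axis from 0. Points are the 2 libraries of each group and bars the mean ± SD (n = 2, the DMSO bar of BMP8A running off the axis at 0), and a reader should see BMP4 and BMP2 drop, BMP7 climb from 3.74 to 10.5, and the genes of the lower row reach at most 0.329 FPKM.

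BMP2, a ligand of heart, bone and extra-embryonic mesoderm development, changed most. Its level was 101 and 122 FPKM in the 2 DMSO libraries and 4.55 and 4.52 FPKM in the 2 IWP2 libraries. Every IWP2 library therefore lay far under every DMSO library, and the nearest ones were 22.3-fold apart. The group means were 111 ± 14.5 FPKM (SD, n = 2) in DMSO and 4.53 ± 0.0179 FPKM (SD, n = 2) in IWP2, a 24.6-fold difference. The log2 change was -4.34 (SE 0.12, 95% interval -4.64 to -4.04, limma adjusted p = 0.000302), the 23rd largest fall among the 15957 genes tested. In DMSO its level exceeded that of 95.2% of tested genes, and in IWP2 that of 38.8%. The call held in all 13 alternative fits, with adjusted p from 0.000181 to 0.0363. BMP2 lies on the plus strand of chromosome 20 (GRCh38, 6767664 to 6780280), and GENCODE lists no other gene over it.

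BMP4 was the most abundant of the 8 genes in every library and fell less. It stood at 171 and 193 FPKM in DMSO and at 68.8 and 66.0 FPKM in IWP2. The groups did not overlap, and both IWP2 libraries still held more BMP4 than any library held of the 6 genes below BMP2. Means were 182 ± 15.5 FPKM (SD, n = 2) and 67.4 ± 1.98 FPKM (SD, n = 2), which is 2.70-fold. The log2 change was -1.42 (SE 0.09, 95% interval -1.65 to -1.18, limma adjusted p = 0.00179). The fall was past the threshold without either DMSO library but not without IWP2 replicate 1 (log2 change -1.45, limma adjusted p = 0.0593) or IWP2 replicate 2 (-1.39, limma adjusted p = 0.0651), fits that leave a single library in the treated arm and borrow its spread from the rest. BMP4 exceeded 97.2% of tested genes in DMSO and 91.7% in IWP2.

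BMP4 is on the minus strand of chromosome 14 (GRCh38, 53949736 to 53958761). Its transcripts start at several points, so a gene-level value does not tell which start was used. The RefSeq promoter table (GRCh38.p14) held 7 entries for 5 of the 8 genes, BMP4, BMP5, BMP6, BMP8A and GDF7, with 3 start sites for BMP4. The 250 bases before each start were searched on both strands for CTTTGAA or CTTTGAT, the letters bound by the Wnt effectors TCF and LEF, for CAGGTG, an E-box read by Snail factors, and for GGCGCC, a site of BMP SMADs. No motif contains another. These windows are shown for the highest and the lowest gene of the family, 5′ to 3′ on the gene's strand, with motif matches in capitals.

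BMP4, chr14:53955051-53955300, minus strand: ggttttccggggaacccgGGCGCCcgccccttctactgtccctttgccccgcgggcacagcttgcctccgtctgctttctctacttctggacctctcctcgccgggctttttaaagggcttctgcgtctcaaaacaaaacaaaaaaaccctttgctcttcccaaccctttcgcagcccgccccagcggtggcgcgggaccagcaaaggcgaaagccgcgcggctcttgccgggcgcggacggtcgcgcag

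BMP5, chr6:55875591-55875840, minus strand: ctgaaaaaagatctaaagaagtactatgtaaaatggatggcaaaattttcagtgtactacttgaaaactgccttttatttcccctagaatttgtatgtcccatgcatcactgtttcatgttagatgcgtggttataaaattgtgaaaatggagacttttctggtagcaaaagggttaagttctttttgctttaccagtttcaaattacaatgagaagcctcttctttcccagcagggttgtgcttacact

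The BMP4 window lies inside the BMP4 gene, upstream of an internal start, and overlaps no annotated exon. It holds 1 GGCGCC, from base -232 to -227 before the start, letters present in 16.4% of the 35116 RefSeq windows of this length. It is 63.6% G and C with 25 CG dinucleotides. The BMP5 window is 35.6% G and C with 1 CG dinucleotide, and 6.19% of all windows hold less G and C. The E-box letters occurred once among the family's windows, in BMP8A from base -134 to -129 (17.5% of all windows hold them), and the TCF/LEF letters, present in 5.94% of all windows, were in none of the 7. The other windows of BMP4, and those of BMP6 and GDF7, held none of the searched letters. Those other BMP4 windows also lie inside the gene and, like the GDF7 window, overlap an annotated exon. The bases upstream of the BMP4 gene as a whole were therefore not searched, nor was any window of BMP2, BMP7 or GDF6.

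BMP7, which marks epithelia and is needed for kidney and eye formation, moved the other way. Its level was 3.51 and 3.96 FPKM in DMSO and 11.4 and 9.58 FPKM in IWP2. Both treated libraries lay above both controls, with the nearest ones 2.42-fold apart. The means of 3.74 ± 0.320 FPKM (SD, n = 2) and 10.5 ± 1.30 FPKM (SD, n = 2) differed 2.81-fold. The log2 change was 1.28 (SE 0.14, 95% interval 0.92 to 1.64, limma adjusted p = 0.00740), the 277th largest rise among tested genes. The call was lost in each fit that left out 1 library, with log2 changes of 1.16 to 1.39 and limma adjusted p of 0.0675 without DMSO replicate 1, 0.0659 without DMSO replicate 2, 0.111 without IWP2 replicate 1 and 0.0931 without IWP2 replicate 2. It was also lost with no filter on low values (limma adjusted p = 0.0637). BMP7 is on the minus strand of chromosome 20 (GRCh38, 57168748 to 57266629). The antisense gene BMP7-AS1 overlaps it and was listed at 0 in all 4 libraries. Whether reads were counted by strand was not given in the sources used here.

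BMP6, best known as the ligand that sets hepcidin and so iron balance, was measured at 1.52 and 0.601 FPKM in DMSO and at 0.0942 and 0.145 FPKM in IWP2. Both IWP2 libraries lay under both DMSO libraries, but the DMSO libraries themselves differed 2.53-fold. The log2 change was -0.84 (SE 0.27, 95% interval -1.54 to -0.15, limma adjusted p = 0.117), which did not pass the threshold. At this level the pseudocount set the size of the change, which was -2.29 with a pseudocount of 0.1 and -2.93 with 0.01, and the adjusted p ran from 0.0649 to 0.345 over 12 alternative fits. Without DMSO replicate 1 the change was -0.52 (limma adjusted p = 0.159). BMP6 spans 154626 bases on the plus strand of chromosome 6 (GRCh38, 7726797 to 7881422).

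**Figure D2:**
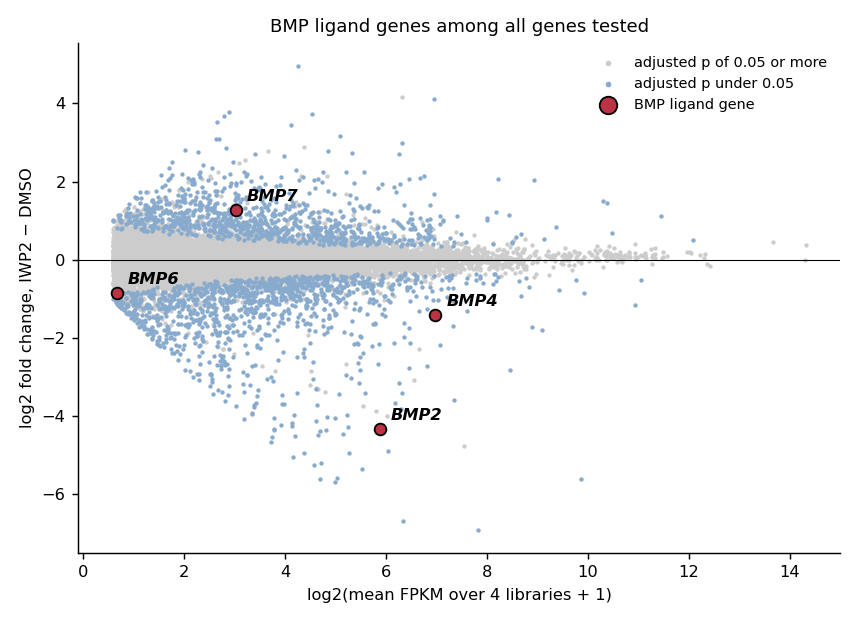
Log2 fold change (IWP2 minus DMSO) of the 15957 genes tested against log2 of their mean FPKM plus 1, with genes called in blue, others in grey and the 4 tested BMP ligand genes in red. BMP2 lies at -4.34 and BMP4 at -1.42 below the bulk of genes of like level, BMP7 at 1.28 above it, and BMP6 at the left edge where the filter begins.

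Among the 4 genes under the filter, GDF6, a ligand of skeletal and eye patterning, was the highest, at 0.329 and 0.283 FPKM in DMSO and 0.230 and 0.279 FPKM in IWP2. Its nearest libraries from opposite groups were only 1.01-fold apart. GDF7, a roof plate signal, stood at 0.133 and 0.171 FPKM in DMSO and 0.0694 and 0.0552 FPKM in IWP2, with both treated libraries lower. BMP5, a ligand of cartilage and limb, stood at 0.106 and 0.0924 FPKM in DMSO and 0.0107 and 0.0124 FPKM in IWP2, again with both treated libraries lower. BMP8A, known from the germ line, was at 0.0912 FPKM and listed at 0 in DMSO and at 0.138 and 0.0963 FPKM in IWP2, with the nearest libraries 1.06-fold apart. When all 28846 genes with a mean above 0 were fitted, none of these 4 genes was called by limma (adjusted p of 0.133 for BMP5, 0.222 for GDF7, 0.511 for BMP8A and 0.607 for GDF6), and 2 of them, BMP5 (0.0135) and GDF7 (0.0383), had an unadjusted limma p under 0.05. BMP8A has a near-identical neighbour, BMP8B, on the same chromosome, and the division of reads between them is uncertain. BMP8B was at 0.172 and 0.171 FPKM in DMSO and 0.104 and 0.170 FPKM in IWP2. These 4 genes lie on chromosome 8 (GDF6, 96142330 to 96160792), chromosome 2 (GDF7, 20666664 to 20679245), chromosome 6 (BMP5, 55753645 to 55875564) and chromosome 1 (BMP8A, 39491646 to 39525935) of GRCh38.

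The order of the ligand levels changed with treatment. In DMSO it ran BMP4, BMP2, BMP7, BMP6, GDF6, GDF7, BMP5 and BMP8A, and no neighbours in that order overlapped, although the lower BMP5 library (0.0924) and the higher BMP8A library (0.0912) were almost equal. In IWP2 BMP7 came before BMP2, followed by GDF6, BMP6, BMP8A, GDF7 and BMP5, and BMP6 and BMP8A overlapped. The BMP4 to BMP2 ratio was 1.69 and 1.59 in the DMSO libraries and 15.1 and 14.6 in the IWP2 libraries. The BMP7 to BMP2 ratio was 0.0347 and 0.0326 in DMSO and 2.51 and 2.12 in IWP2. In each ratio the groups lay apart by more than the spread within them.

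Added over the 8 genes, ligand transcripts came to 278 and 320 FPKM in DMSO and to 85.3 and 80.7 FPKM in IWP2. The means were 299 ± 29.6 FPKM (SD, n = 2) and 83.0 ± 3.27 FPKM (SD, n = 2), a 3.60-fold difference, given as a description with no test. BMP4 and BMP2 together made up 98.0% and 98.4% of the sum in DMSO and 86.0% and 87.4% in IWP2. BMP4's own share was 61.6% and 60.4% in DMSO and 80.7% and 81.8% in IWP2, so its share was higher where its level was lower. BMP2's share was 36.4% and 38.0% in DMSO and 5.33% and 5.60% in IWP2. BMP7 held 1.26% and 1.24% in DMSO and 13.4% and 11.9% in IWP2. The other 5 genes never exceeded 0.784% together.

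**Figure D3:**
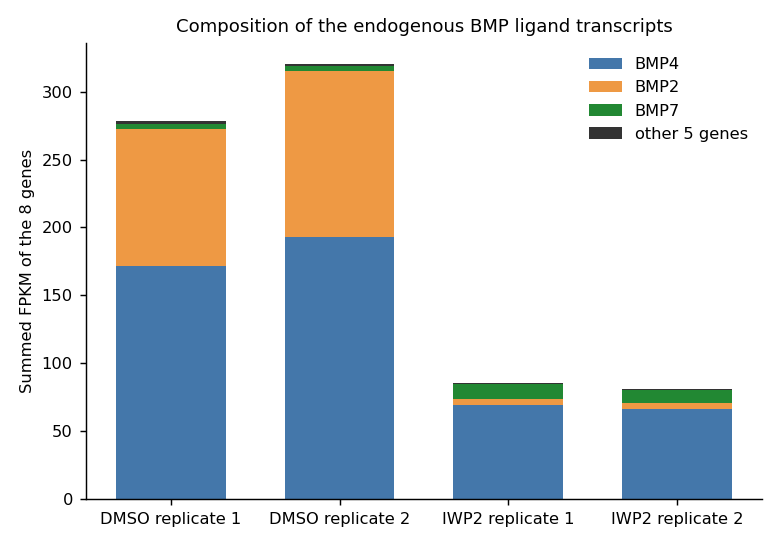
Summed FPKM of the 8 BMP ligand genes in each of the 4 libraries, as stacked bars from 0 with BMP4, BMP2, BMP7 and the other 5 genes in separate colours. The bars reach 278 and 320 FPKM in DMSO and 85.3 and 80.7 FPKM in IWP2, with BMP2 large in the DMSO bars and thin in the IWP2 bars.

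The rest of the pathway was read from lists of 79 genes, 62 of which were tested. Of these 8 were called higher and 11 lower, 30.6% against 13.3% of all tested genes. The lists were chosen with earlier results of these data known, and the difference in share was not tested. Leaving out single libraries kept 4 of the 19 calls in all 4 fits (CER1, BMPER, MSX1 and TBX3), and 10 of the 19 were called in none of them. Among 17 other BMP and GDF ligand genes, 6 were tested and only GDF3, a NODAL-like ligand of pluripotent cells, was called, rising from 5.29 and 6.52 FPKM to 11.7 and 13.9 FPKM (log2 change 1.00, SE 0.15, limma adjusted p = 0.0167, and 0.0748 to 0.166 when 1 library was left out). That list also held the related ligand genes NODAL, AMH, INHBA and INHBB. The 6 tested were GDF1, GDF3, GDF11, GDF15, AMH and NODAL. Their median log2 change was 0.105, set by AMH and NODAL, and that of all tested genes -0.0145.

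Of 11 tested receptor and co-receptor genes, 1 was called higher and 2 lower (median log2 change -0.147). ACVRL1, the endothelial type I receptor for BMP9 and BMP10, fell from 3.73 and 4.16 FPKM to 0.295 and 0.305 FPKM (log2 change -1.93, SE 0.16, limma adjusted p = 0.00362). ACVR2A, a type II receptor shared by activins and BMPs, fell from 5.89 and 7.44 FPKM to 3.12 and 3.07 FPKM (log2 change -0.90, limma adjusted p = 0.0240). BMPR1A, the type I receptor for BMP2 and BMP4, rose from 40.2 and 38.5 FPKM to 60.5 and 51.3 FPKM (log2 change 0.49, limma adjusted p = 0.0459). The adjusted p rose to at most 0.0778 for ACVRL1, 0.188 for ACVR2A and 0.212 for BMPR1A when 1 library was left out. BMPR2, the type II receptor particular to BMPs, was at 14.5 and 14.6 FPKM in DMSO and 13.2 and 11.7 FPKM in IWP2 and was not called (95% interval of the log2 change -0.48 to 0.07).

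None of the 4 signal transducers SMAD1, SMAD5, SMAD9 and SMAD4 was called by limma (2 had an unadjusted p under 0.05, 0.0260 for SMAD5 and 0.0426 for SMAD9), and their median log2 change was -0.217. Of 9 genes for intracellular and membrane inhibitors, SMAD6, which blocks BMP receptors and is itself a BMP target, fell from 106 and 126 FPKM to 64.0 and 67.4 FPKM (log2 change -0.81, SE 0.11, limma adjusted p = 0.0125). BAMBI, a decoy receptor, rose from 320 and 284 FPKM to 395 and 439 FPKM (log2 change 0.46, SE 0.10, limma adjusted p = 0.0464). With all 4 libraries the BAMBI call was lost without the mean-variance trend (limma adjusted p = 0.096). With no filter on low values BAMBI (0.148) and SMAD6 (0.0788) both lost their calls. Without single libraries the adjusted p reached 0.141 for SMAD6 and 0.247 for BAMBI.

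Secreted antagonists held the largest change of the pathway. Of 15 tested, 4 were called lower and 1 higher (median log2 change -0.210). CER1, which binds BMPs and NODAL, fell from 1612 and 2048 FPKM to 38.6 and 34.2 FPKM, 50.2-fold (log2 change -5.60, SE 0.14, limma adjusted p = 0.000302). BMPER, which binds and modulates BMPs, fell from 59.2 and 74.2 FPKM to 2.56 and 1.65 FPKM (log2 change -4.45, SE 0.19, limma adjusted p = 0.000661). FST, which binds activins and some BMPs, fell from 58.2 and 51.7 FPKM to 13.8 and 15.0 FPKM (log2 change -1.86, SE 0.10, limma adjusted p = 0.00118, at most 0.0504 without single libraries). KCP fell as well, from 3.64 and 4.49 FPKM to 1.31 and 1.13 FPKM, and CHRDL1, a chordin-like antagonist, rose from 1.11 and 1.19 FPKM to 4.05 and 3.31 FPKM, both calls being lost without single libraries (limma adjusted p up to 0.145 and 0.140). NOG, the noggin gene, was at 29.3 and 31.8 FPKM in DMSO and 28.4 and 34.4 FPKM in IWP2, and these groups overlapped (95% interval of the log2 change -0.28 to 0.34). Of 5 tested proteases that mature BMP precursors or cut their antagonists, FURIN alone was called, with 41.9 and 36.6 FPKM in DMSO and 57.3 and 54.7 FPKM in IWP2 (log2 change 0.51, limma adjusted p = 0.0340). The FURIN call was lost in each fit without 1 library (log2 change 0.41 to 0.60). It was also lost without the mean-variance trend (limma adjusted p = 0.0720) and with no filter on low values (0.107).

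Genes known to respond to BMP did not move together. Of 12 tested, 3 were called higher and 4 lower (median log2 change -0.374). ID1, an inhibitor of bHLH factors and a direct SMAD target, rose from 789 and 644 FPKM to 1772 and 2137 FPKM (log2 change 1.45, SE 0.15, limma adjusted p = 0.00616). ID3 rose from 83.6 and 98.5 FPKM to 157 and 216 FPKM and ID4 from 31.3 and 31.2 FPKM to 73.4 and 76.7 FPKM (limma adjusted p = 0.0255 and 0.00173). ID2 was at 113 and 136 FPKM in DMSO and 161 and 176 FPKM in IWP2 and was not called (limma adjusted p = 0.0736). Leaving out single libraries ended the calls of ID1 and ID3 in all 4 fits (limma adjusted p up to 0.0945 and 0.153). ID4 lost its call without IWP2 replicate 1 (limma adjusted p = 0.0561) or IWP2 replicate 2 (0.0623) and kept it without either DMSO library. The 4 genes called lower encode transcription factors of mesoderm and limb. MSX1 fell from 36.3 and 29.6 FPKM to 1.04 and 1.23 FPKM (log2 change -3.99, limma adjusted p = 0.000428), and TBX3 fell from 70.6 and 77.3 FPKM to 10.5 and 11.4 FPKM (log2 change -2.65, limma adjusted p = 0.000428). HAND1 fell from 234 and 322 FPKM to 101 and 119 FPKM and VENTX from 5.77 and 5.14 FPKM to 0.895 and 1.24 FPKM, with limma adjusted p up to 0.143 and 0.0889 without single libraries. MSX2 overlapped between groups, at 75.9 and 61.3 FPKM in DMSO and 60.1 and 65.3 FPKM in IWP2.

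**Figure D4:**
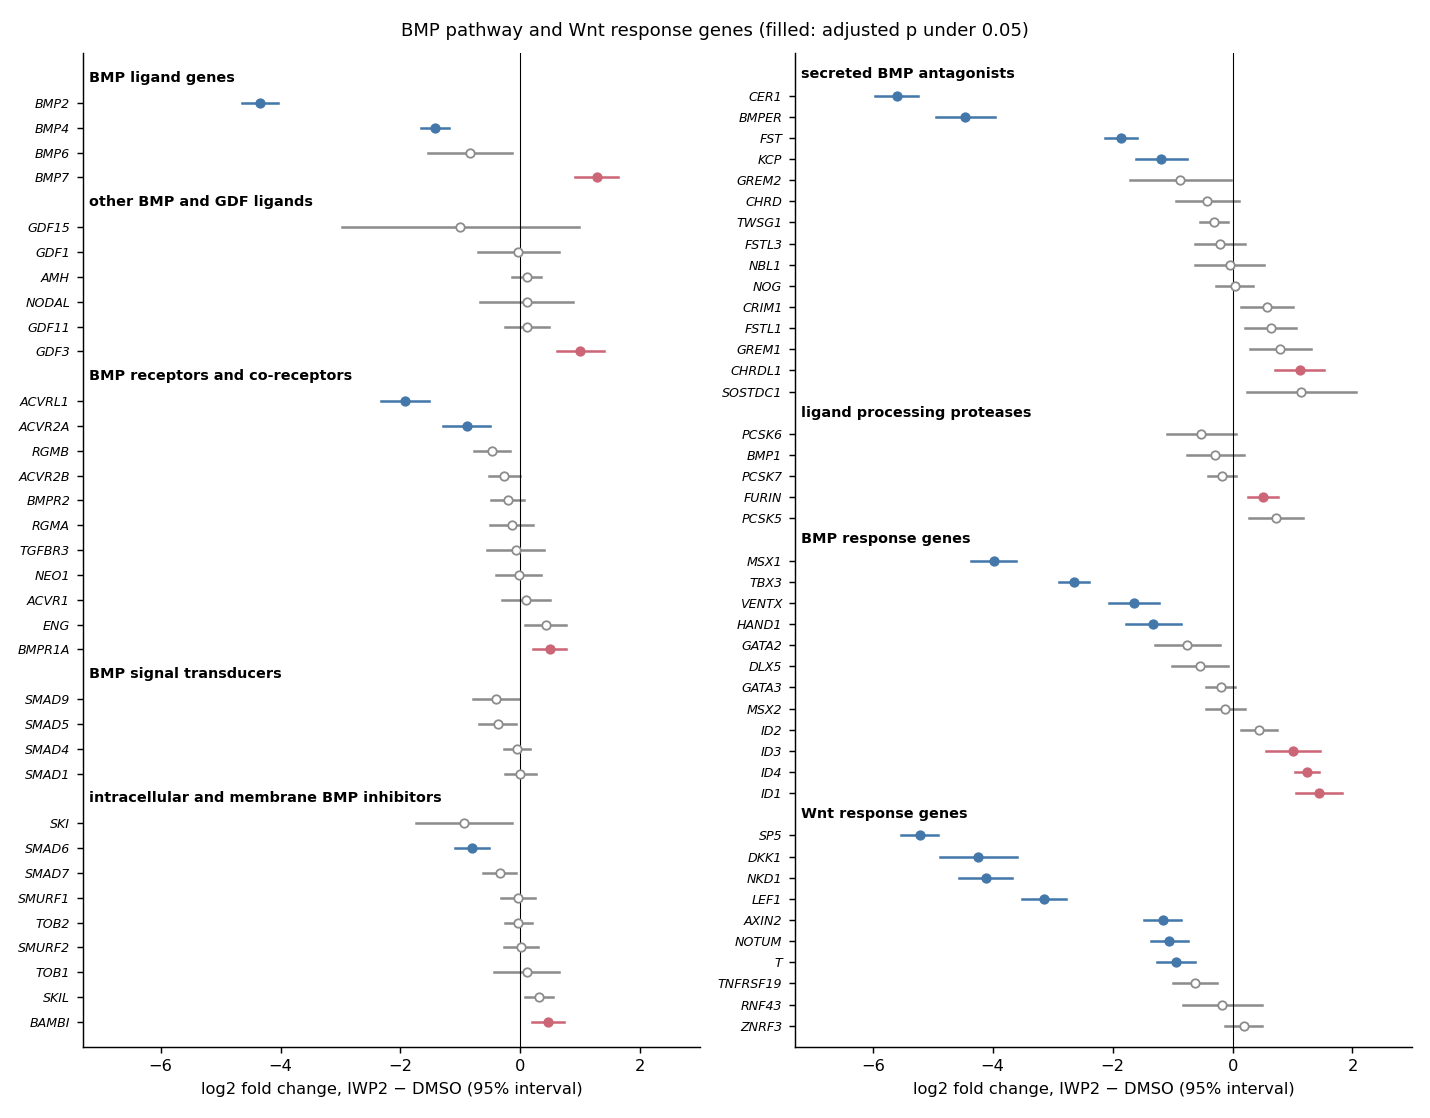
Log2 fold change (IWP2 minus DMSO) with its 95% interval for every tested BMP ligand gene, BMP pathway gene and Wnt response gene, grouped by role. Filled points were called (blue lower, red higher) and open grey points were not, and a reader should see BMP2, CER1, BMPER, MSX1 and SP5, DKK1, NKD1 and LEF1 far to the left while ID1, ID3, ID4 and BMP7 lie to the right.

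The ligand changes came with a change in the cells' state. Of 10 Wnt response genes 7 were called lower and 0 higher, among them SP5 (53.2 and 47.0 FPKM to 0.379 and 0.363 FPKM), LEF1, DKK1 and NKD1, and these 4 were also called in every fit without 1 library. The other 3 called lower, AXIN2, NOTUM and T, did not keep their calls in any fit without 1 library. AXIN2 stood at 14.15 and 15.24 FPKM in DMSO and 6.45 and 5.58 FPKM in IWP2, with log2 changes of -1.254 to -1.075 in those fits. All 10 primitive streak and mesoderm markers fell, with a summed level of 985 to 1222 FPKM in DMSO and 93.7 to 94.98 FPKM in IWP2. MESP1 fell from 47.6 and 74.6 FPKM to 0.244 and 0.0870 FPKM, and MIXL1 from 278 and 317 FPKM to 21.7 and 25.4 FPKM. Of 5 pluripotency markers 4 rose, their sum being 720 to 908 FPKM in DMSO and 2144 to 2148 FPKM in IWP2, and SOX2 rose from 0.193 and 0.174 FPKM to 35.6 and 36.1 FPKM. NANOG, the fifth, was at 23.0 and 9.54 FPKM in DMSO and 33.6 and 27.5 FPKM in IWP2 and was not called (limma adjusted p = 0.182). Of 4 tested definitive endoderm markers 3, FOXA2, CXCR4 and HHEX, were called lower (sum of the list 125 to 188 FPKM in DMSO, 84.1 to 100 FPKM in IWP2). SOX17 made up most of that sum, at 155 and 104 FPKM in DMSO and 79.7 and 94.9 FPKM in IWP2. It was not called (limma adjusted p = 0.166). Amnion or trophoblast markers were mixed, with 3 of 8 called higher (TFAP2A, GABRP and KRT7) and 2 lower (CDX2 and HAND1). The sum of that list was 337 to 408 FPKM in DMSO and 237 to 262 FPKM in IWP2. HAND1 was its largest member in every library and set its fall, at 234 and 322 FPKM in DMSO and 101 and 119 FPKM in IWP2. Of 2 tested genes on the neural ectoderm list 1 was called lower, OTX2, which fell from 55.8 and 61.2 FPKM to 2.19 and 2.95 FPKM. It made up most of the sum of the list (57.4 to 61.9 FPKM in DMSO, 2.69 to 3.02 FPKM in IWP2). PAX6, at 1.33 and 0.646 FPKM in DMSO and 0.0838 and 0.0278 FPKM in IWP2, was not called (limma adjusted p = 0.0771). SOX1 and ZIC1 stayed under the filter, and SOX1 was listed at 0 in 2 libraries. With 1 gene carrying its sum, this list cannot tell whether neural cells were present. The 1 tested endothelial or blood marker fell (sum of the list 2.63 to 3.32 FPKM in DMSO, 0.406 to 0.843 FPKM in IWP2), with PTPRC listed at 0 in 3 libraries. Among these markers, SOX2, MIXL1, MESP1, EOMES and APLNR kept their calls in every alternative fit. KRT7 lost its call in each fit without 1 library (log2 change 1.89 to 2.32). CDX2, POU5F1 and SNAI1 lost theirs without either IWP2 library. With no filter on low values KRT7 (limma adjusted p = 0.0624) and POU5F1 (0.0714) were not called. The part of these cell states in the ligand changes was not tested. T stands in both the Wnt response and the mesoderm list, and GATA3 and HAND1 in both the BMP response and the amnion or trophoblast list.

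The profiles of the 2 most abundant ligand genes were also set against those of 15953 other tested genes, by the Euclidean distance between the 4 log2(FPKM + 1) values after centring each gene on its mean. This is a description over 4 libraries. Among the nearest to BMP2 were the noncanonical Wnt ligand WNT5A (distance 0.174), at 60.1 and 82.4 FPKM in DMSO and 2.45 and 2.82 FPKM in IWP2, and the R-spondin receptor LGR5 (0.216), at 21.5 and 27.8 FPKM in DMSO and 0.105 and 0.0763 FPKM in IWP2. Nearest to BMP4 were APOBEC3F (0.0284), APOBEC3D (0.0296) and KLF8 (0.0381), with log2 changes from -1.43 to -1.42. APOBEC3F and APOBEC3D are similar neighbouring genes whose reads may be shared.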

How the data were processed

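RNA-seq libraries (Illumina TruSeq RNA kit, total RNA) of 2 DMSO and 2 IWP2 samples of H1 cells were analysed. The authors deposited 1 table of FPKM values per gene and library. The submitters' processing notes name BWA, Bowtie and RSEM without versions or roles, and the genome build hg19, whereas the gene coordinates in the table equal those of GRCh38 (GENCODE 29) for all 8 ligand genes after its 0-based starts were raised by 1. Columns with a plus sign carry the titles of the IWP2 samples. Columns with a minus sign were assigned to the DMSO group by that sign and are told apart by the number in the column name. No column was left unused. Counts and read depth are not in the table, so count models and intervals on counts were not used, and the number of libraries limits the precision.

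Of 58365 rows, 1770 with a repeated symbol were dropped, keeping the row of highest mean. log2(FPKM + 1) values of genes with a mean of at least 0.5 FPKM were fitted with limma 3.58.1 (R 4.3.3, moderated test with a mean-variance trend, two-sided, no block), with Benjamini-Hochberg adjustment over all tested genes. Alternatives changed the pseudocount, filter, scaling, trend or block, or left out 1 library. Promoter windows came from RefSeq.

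The member genes, gene lists and motifs were chosen with earlier results of these data known. Named were all 8 ligand genes, up to 4 called genes of each list by size of change, genes a result turned on (CHRDL1, ID2, ID3, ID4, HAND1, MSX2, NOG, BMPR2, BMP8B, the markers), and the 3 nearest profiles of the 2 highest ligand genes, of which 1 is not reported here.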

Additional observations from a re-analysis of the deposited data

How the results depend on the processing

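BMP2 and BMP4 stayed lower and BMP7 higher in IWP2 in all 13 alternatives run for each, and BMP6 stayed lower in all 12 run for it. Of these 51 values, 44 kept their side of the threshold and 7 lost the call, 2 for BMP4 and 5 for BMP7. Leaving out single libraries gave log2 changes of -1.51 to -1.33 for BMP4 and 1.16 to 1.39 for BMP7, and 1 ligand gene called (BMP2) without either IWP2 library against 2 without either DMSO library. With no filter on low values BMP7 kept its log2 change of 1.28 but not its call. Over all genes the calls then numbered 384 (118 higher, 266 lower), with 7 pathway genes. Without single libraries they numbered 107 to 731 (19 to 300 higher, 88 to 431 lower), with 4 to 10 pathway genes against 19. Such fits have fewer samples and assume that the lone library varies like the other group.

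The replicate number as a block gave 1922 calls over all genes (849 higher, 1073 lower) against 2115, with BMP2, BMP4 and BMP7 again called, and 21 pathway genes, while BAMBI lost its call (limma adjusted p = 0.0642) and ID2 gained one (0.0403). The labels do not say what the numbers share. Differences between replicates 1 and 2 correlated between groups with r of 0.138, and mitochondrial transcripts made up 9.57% and 8.95% of the summed FPKM in the libraries numbered 1 and 6.25% and 6.92% in those numbered 2. The IWP2 to DMSO ratio of the summed ligand FPKM was 0.278, and 0.259 to 0.298 under other scalings or without single libraries.

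Of 3 named genes outside the 8 that were not called, the sign changed when single libraries were left out. The log2 change ran from -0.10 to 0.17 for NOG (including -0.026) and from -0.27 to 0.029 for MSX2. For GDF15 it ran from -2.21 to 0.21. Of 624 alternatives for all other named genes, 504 kept their side of the threshold, 113 lost it, 3 gained it (ID2 with the block, GDF15 without DMSO replicate 2 and NANOG without DMSO replicate 1, limma adjusted p = 0.0498) and 4 changed sign as given above. Most of the 113 losses came from fits that left out 1 library. The cause of these changes was not tested. Without counts in the table, depth cannot be weighed against the low levels of BMP5, BMP8A, GDF6 and GDF7.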

Other observations

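Neighbours of the 3 called ligand genes were looked up within 500 kb on either side, a choice made after the values were seen. None of the 5 genes listed around BMP2 passed the filter on low values. Of 9 genes listed around BMP4, 3 were tested and none was called, the nearest protein-coding ones being CDKN3 (438 kb away, log2 change 0.27, limma adjusted p = 0.271) and CNIH1 (465 kb away, log2 change 0.18, limma adjusted p = 0.214). Of 24 genes listed around BMP7, 5 were tested and PMEPA1, a feedback inhibitor of TGF-β signalling 382 kb away, was called higher (28.5 and 30.7 FPKM in DMSO, 38.7 and 41.3 FPKM in IWP2, log2 change 0.42, SE 0.09, limma adjusted p = 0.0423). RAE1, the nearest tested gene at 84.4 kb, was at 17.5 and 20.8 FPKM in DMSO and 18.7 and 19.6 FPKM in IWP2 (log2 change 0.01, limma adjusted p = 0.976). The PMEPA1 call was lost in each fit without 1 library and with the replicate block (limma adjusted p = 0.0517).

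GDF15, a stress-induced ligand of the wider family, was at 49.1 FPKM in DMSO replicate 1 and at 8.36 FPKM in DMSO replicate 2, against 8.69 and 11.1 FPKM in IWP2. It was not called (log2 change -1.001, SE 0.77, limma adjusted p = 0.455), and its sign turned without DMSO replicate 1 (log2 change 0.21, limma adjusted p = 0.555). Without DMSO replicate 2 it was called lower (log2 change -2.21, limma adjusted p = 0.0452). BMP6 was also higher in that library, at 1.52 FPKM against 0.601 FPKM, whereas BMP2, BMP4 and BMP7 were lower in it than in DMSO replicate 2.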
